A study of Mus musculus with 14 samples.

Results

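The potassium channel genes of the newborn mouse brain were the 81 protein-coding genes, of 17927 genes counted, whose symbol begins with Kcn followed by the letters of a channel subfamily, apart from 1 such gene that the rule left out. They fell into 21 subfamilies, from Kcna to Kcnv, and were grouped here into 13 roles. Choosing by symbol used no measured value. RNA-SEQ had been used to compare whole brains of 7 WT and 7 Capn15 KO mice, and the question it addressed was which RNAs differ in level when Capn15, an intracellular cysteine protease of the calpain family, is lost. All mice were untreated, were 2 days old (P2) and came from lines made in C57BL/6J mice. The study describes a lacZ-Neo insertion and a FLOXed line of Capn15, and the sources used here do not say which allele or Cre the sequenced brains carried. The study names 6 litters without saying which brain came from which. The letters A to F in the column names of the counts were read here as those litters. Litter B gave 2 WT and 2 Capn15 KO brains, and each other litter gave 1 of either genotype. Females made up 2 of the WT and 4 of the Capn15 KO brains, males 5 and 3, and in 6 of the 7 pairs of WT and Capn15 KO brains with the same number the sexes were opposite.

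Potassium channels let potassium ions leave or enter cells down their gradient, and so set the resting voltage of neurons and glia, end the action potential and pace repetitive firing. Voltage-gated (Kv) channels assemble from several subunits that each carry a voltage sensor and a pore loop. Inward rectifiers (Kir) lack the voltage sensor and hold the membrane near rest, K2P leak channels carry a pair of pore loops in each subunit, and calcium- and sodium-activated channels open when those ions enter the cell. Auxiliary subunits carry no pore and change the gating or the transport of the subunits that do.

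The counts of a library summed to between 39937477 and 57422382 in WT, with a median of 43181055, and to between 37620954 and 70910163 in Capn15 KO, with a median of 50059045. Levels are given as counts per 1000000 counts (CPM) after scaling with edgeR's TMM factors, and where genes are compared with each other as CPM per kilobase of exon. Capn15 was between 25.0 and 27.3 CPM in WT brains 1 to 6 and between 12.2 and 14.5 CPM in Capn15 KO brains 1 to 6. The brains of litter F did not follow their labels, with 18.7 CPM in the library labelled WT 7 and 20.2 CPM in the library labelled Capn15 KO 7, and every direction of genotype below rests on the labels. The labels name neurons as the cell type, but markers of other cells were present in every brain, such as Ttr of the choroid plexus at 846 CPM in WT and the astrocyte and radial glia gene Slc1a3 at 519 CPM. In whole brain, fewer cells of a type and less RNA per cell cannot be told apart. The labels do not say more about how brains were taken, and the p-values below measure the spread between these 14 brains.

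The pore loop holds the selectivity filter, the stretch that lines the narrowest part of the channel, and its codons can be read from the genome (GRCm38, GENCODE M21). The codon runs searched in frame in the longest coding sequence of each gene opened with a codon that starts with AC, TC or AG, went on with a codon that has T in the middle, then GGN, then a codon that starts with T, and closed with GGN, with N standing for any base. Such a run was found in 57 of the 58 pore-forming members, in 10 of the 10 members that are silent on their own and modify Kv2 channels, and in 0 of the 13 auxiliary members, against 454 of 21523 protein-coding genes (2.11%). Of the 10 K2P genes 8 had 2 matches. The windows below, on the strand of the gene, are shown because they tell the pore-forming members described later apart from the auxiliary ones. Capitals mark the codons of the filter.
Kcna6: acaatgaccACGGTAGGTTATGGGgacatg
Kcnd2: accatgacaACACTGGGGTATGGCgacatg
Kcnh2: agcctcaccAGCGTGGGCTTTGGCaatgtc
Kcnf1: accatgaccACAGTGGGCTATGGTgacatc
Kcnj10: tcccagaccACCATCGGCTATGGCttccgc
Kcnj13: acacaacttACAATTGGTTATGGTaccatg
Kcnk9, first pore: gtcatcacaACTATCGGATATGGAcatgct
Kcnk9, second pore: acattgactACTATAGGGTTCGGCgatttt
Kcnk1: gtgctctccACCACAGGCTATGGCcacacg
Kcnma1: acaatgtctACAGTGGGTTATGGGgacgtt

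The capitals of Kcna6 lie in exon 1 at chr6:126738647-126738661 on the minus strand, and those of Kcnh2 in exon 7 at chr5:24325555-24325569 on the minus strand. Kcnf1 has its run at chr12:17175061-17175075 on the minus strand, in its only exon. Kcnj10 has its run in exon 2 at chr1:172369302-172369316 on the plus strand, and Kcnj13 in exon 2 at chr1:87389021-87389035 on the minus strand. The run of Kcnma1 lies in exon 8 at chr14:23528413-23528427 on the minus strand. Those of Kcnd2 (chr6:21217406-21714141, plus strand), Kcnk1 (chr8:125995808-126025019, plus strand) and the first pore of Kcnk9 (chr15:72513037-72546003, minus strand) are split between exons 1 and 2, and the spans given include the intron. The second pore of Kcnk9 lies in exon 2 at chr15:72512719-72512733, again on the minus strand. Kcnk1 was the pore-forming member without a match, and its line shows a looser run that opens with AC and allows any second codon, which was looked for after the first search had found nothing. Kcnh2 differed from the other members shown in the opening codon of its filter.

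Over the 14 brains 77 of the 81 members had a mean level of at least 1 CPM and 49 of at least 10 CPM. The other 4, Kcng4, Kcnv2, Kcnn4 and Kcnj14, were below 1 CPM, and no member was at or under 3 counts in any library, the floor used here for detection. Shares are given for 10 of the 13 roles. Summed per kilobase of exon, auxiliary subunits made up 20.9% of the family's level in WT, the 3 Kv4 genes 11.8%, the K2P genes 11.5%, the Kv1 genes 11.2% and the inward rectifiers 10.1%. The Kv2 modifiers held 7.32% and the eag, erg and elk genes 6.29%. Calcium-activated channels held 4.36%, sodium-activated channels 2.07% and the sperm channel gene Kcnu1 0.375%.

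Among the voltage-gated channels, the family's highest level per kilobase belonged to Kcnd2, which encodes the Kv4.2 subunit of the dendritic A-type current. Kcnd2 was at 37.6 ± 2.47 CPM per kilobase (SD, n = 7) in WT, Kcnd3 at 7.86 ± 0.614 and Kcnd1 at 0.725 ± 0.0518. The 3 Kv4 genes kept this order beyond their spread. Of the Kv1 genes, which encode low-threshold channels of axons, Kcna6 was highest at 19.7 ± 2.09 CPM per kilobase, followed by Kcna3 at 9.88 ± 0.342 and Kcna4 at 6.66 ± 0.574. Kcna2 (4.10 ± 0.378) and Kcna1 (1.59 ± 0.272), which encode the axonal channels of the mature brain, were lower. Of the Kv7 genes, whose channels carry the M current that restrains repetitive firing, Kcnq5 (6.76 ± 1.22 CPM per kilobase) and Kcnq3 (6.68 ± 0.946) differed from each other by less than their spread.

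The Kv2 genes encode the slow delayed rectifier of cell bodies, and Kcnb2 was at 3.45 ± 0.221 CPM per kilobase. Of the Kv3 genes, which allow fast firing, Kcnc4 was at 6.87 ± 0.557 CPM per kilobase, Kcnc1 at 4.17 ± 0.225 and Kcnc2 at 3.23 ± 0.414. Of the eag, erg and elk genes, Kcnh2, the erg channel of cardiac repolarization that neurons also use, led with 6.27 ± 0.542 CPM per kilobase. Kcnh1 (3.78 ± 0.683), Kcnh7 (3.64 ± 0.266) and Kcnh3 (3.40 ± 0.778) followed and overlapped within their SD. The silent subunits that join Kv2 channels were led by Kcnf1 (8.60 ± 1.31 CPM per kilobase), Kcnv1 (7.49 ± 1.59) and Kcns2 (5.59 ± 0.641), each above the level per kilobase of the Kv2 gene Kcnb2.

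Outside the voltage-gated channels, the K2P gene Kcnk1 was at 13.4 ± 1.71 CPM per kilobase, Kcnk10 at 10.6 ± 1.06 and Kcnk2 at 7.57 ± 0.862. Kcnk10 and Kcnk2 encode the TREK channels that respond to stretch and lipids. Of the inward rectifiers, Kcnj3, a subunit of the channel that G proteins open, was at 9.52 ± 1.30 CPM per kilobase, Kcnj4 at 6.19 ± 1.45 and Kcnj2 at 3.84 ± 0.401. The other subunit of the G protein-gated channel in the named set, Kcnj9, was at 3.43 ± 0.797. The inward rectifiers of glia, Kcnj10 (2.28 ± 0.420) and Kcnj16 (2.41 ± 0.537), and Kcnj13 (3.06 ± 0.364), known from the choroid plexus and the retinal pigment epithelium, stood in the middle of the family. The BK channel gene Kcnma1 was at 7.50 ± 0.823 CPM per kilobase, above Kcnn1 (5.11 ± 1.31) and Kcnn3 (2.19 ± 0.203), which encode small-conductance calcium-activated channels. The sodium-activated channel genes Kcnt1 (5.12 ± 0.457) and Kcnt2 (2.96 ± 0.547) were followed by Kcnu1 (1.46 ± 0.104).

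Among the auxiliary subunits, the KChIP genes Kcnip3 (11.9 ± 1.58 CPM per kilobase) and Kcnip2 (10.2 ± 1.89), whose calcium-binding products attach to Kv4 channels, were highest, beside Kcne1l at 10.1 ± 0.600. These 3 overlapped within their SD. Kcne2, a small single-pass subunit, was at 4.46 ± 0.539 CPM per kilobase, and the Kv beta genes Kcnab1 and Kcnab3, whose products attach to Kv1 channels, were at 3.32 ± 0.794 and 2.04 ± 0.166.

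**Figure D1:**
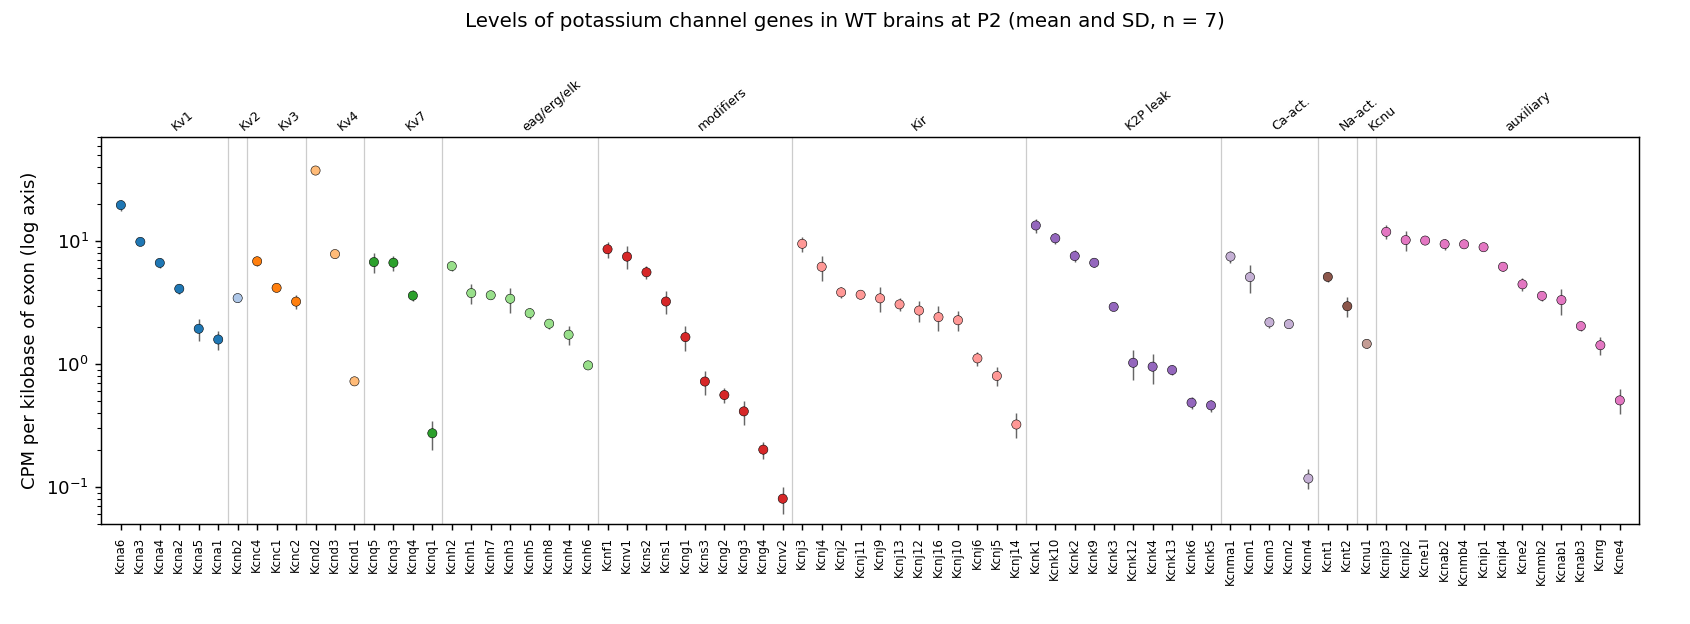
Level of 78 of the 81 potassium channel genes in WT brains at P2, in CPM per kilobase of exon on a log axis, with genes ordered by level within each role. Points are means and bars the SD over 7 brains; Kcnd2, at 37.6 CPM per kilobase, stands above all others, and most roles span a wide range.

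Between genotypes, the levels of these genes lay close together in WT and Capn15 KO brains. By edgeR's quasi-likelihood test, with sex and litter as further terms and Benjamini-Hochberg adjustment over all genes (FDR), 0 of the 81 members differed at an FDR under 0.05, beside 1 of 17927 genes (0.00558%). The paper's edgeR analysis, also with sex and litter, put Capn15 and other genes under an FDR of 0.05. In the fit used here Capn15 was not the gene called. Its log2 fold change was -0.81 (SE 0.118), with an FDR of 0.0747 by edgeR's quasi-likelihood test over all 14 brains. At an unadjusted p under 0.05 there were 5 members (6.17%), beside 922 of all genes (5.14%), or 5.34% of those with at least 1 CPM, so the members' share was close to the background. Of the 5, Kcnk5 was higher in Capn15 KO (1 member, beside 2.88% of all genes) and Kcne2, Kcnj13, Kcnh2 and Kcng4 were lower (4 members, beside 2.26%). DESeq2 put 2 members under an unadjusted p of 0.05, a count given without the share over all genes. A likelihood ratio test in edgeR put 1 member, Kcne2, under an FDR of 0.05 (FDR 0.00851), beside 34 of all genes. That test does not allow for the uncertainty of each gene's spread. The median log2 fold change of the members was 0.01, beside 0.00 over all genes, 36 members were lower and 45 higher (48.6% of all genes were lower), and 75 of the 81 estimates were smaller than 0.2 in size. No member had 7 WT values and 7 Capn15 KO values that did not overlap, a pattern that 0.00558% of all genes had.

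Kcne2 was between 6.57 and 9.04 CPM in WT, with a median of 7.67, and between 4.99 and 7.54 CPM in Capn15 KO, with a median of 5.98. It was lower in the Capn15 KO brain in 6 of 7 pairs, and the groups overlapped. The log2 fold change was -0.36 (SE 0.0774), with an FDR of 0.278 by edgeR's quasi-likelihood test, and an exact two-sided permutation test over all regroupings of the 14 brains into 7 and 7 gave p = 0.0122, not adjusted. Kcnj13 was between 3.37 and 4.53 CPM in WT, with a median of 3.73, and between 2.69 and 3.71 CPM in Capn15 KO, with a median of 3.06. It was lower in all 7 pairs, as 1 member and 0.597% of all genes were, and again the groups overlapped. Its log2 fold change was -0.31 (SE 0.0762), with an FDR of 0.466 by edgeR's quasi-likelihood test and p = 0.0035 by the same exact permutation test. The library labelled WT 7 held 4.47 CPM of Kcnj13 and 7.67 CPM of Kcne2, and the library labelled Capn15 KO 7 held 3.06 and 5.31 CPM, so that in litter F, where Capn15 did not follow the labels, both genes were lower in the brain labelled Capn15 KO. Without litter F the log2 fold changes were -0.33 (SE 0.0838, FDR 0.518) for Kcne2 and -0.26 (SE 0.0828, FDR 0.910) for Kcnj13 by edgeR's quasi-likelihood test, and 0 members had an FDR under 0.05 and 5 an unadjusted p under it.

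Both genes are known from the choroid plexus, the epithelium that makes cerebrospinal fluid, and markers of that tissue moved with them. Of 12 choroid plexus markers measured, 0 reached an FDR under 0.05, 8 were lower in Capn15 KO at an unadjusted p under 0.05 and 1 (Prlr) was higher. Their median log2 fold change was -0.19. None of the 12 was at 0 in any brain. The paper's edgeR analysis, also with sex and litter, put Ttr under an FDR of 0.05 and lower in Capn15 KO. The summed level of the list was between 809 and 1055 CPM in WT and between 670 and 924 CPM in Capn15 KO, and most of it was Ttr, which was at 846 ± 74.1 CPM in WT and 680 ± 84.2 CPM in Capn15 KO (SD, n = 7, log2 fold change -0.32, SE 0.0513, FDR 0.0942 by edgeR's quasi-likelihood test). Divided by the summed markers of the same brain, Kcne2 was at 0.812% ± 0.0860 in WT and 0.785% ± 0.106 in Capn15 KO (SD, n = 7), a log2 difference of -0.05 with p = 0.621 by the exact permutation test. Kcnj13 was at 0.4003% ± 0.0307 and 0.395% ± 0.0644, a log2 difference of -0.03 with p = 0.763 by the same exact permutation test. These ratios were added after the data had been seen. As most of the marker sum was Ttr, they set both genes chiefly against Ttr. The part of choroid plexus tissue in the lower levels was not tested.

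**Figure D2:**
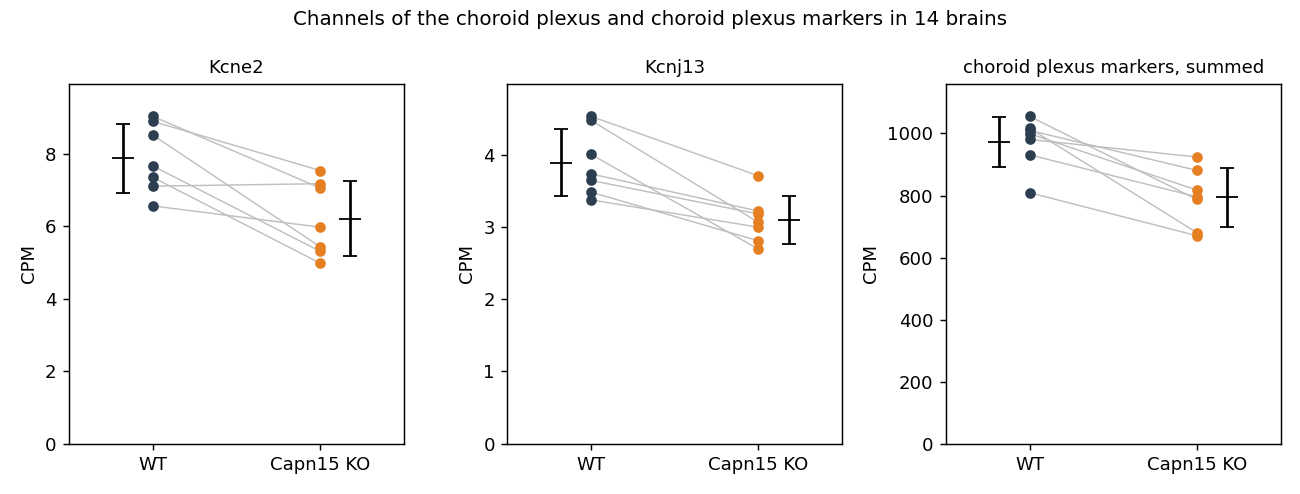
CPM of Kcne2, of Kcnj13 and of 12 choroid plexus markers summed, in 7 WT and 7 Capn15 KO brains at P2. Points are brains, grey lines join WT and Capn15 KO brains with the same number from the same litter, and black bars give the mean and SD; the Capn15 KO end of the line is the lower one for Kcnj13 in all 7 pairs, for Kcne2 in 6 and for the marker sum in all 7.

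Across the 14 brains, log2 CPM of Kcne2 and the log2 of the summed choroid plexus markers had a Pearson r of 0.753 (permutation p = 0.00192, adjusted over 4 such relations 0.00256) and a Spearman rho of 0.771 (permutation p = 0.00167, adjusted 0.00223). Without the brains Capn15 KO 5 and Capn15 KO 7, the farthest from the median of the marker sum, r was 0.514. For Kcnj13, r was 0.655 (permutation p = 0.0120, adjusted 0.0120) and rho 0.723 (permutation p = 0.00497, adjusted 0.00497), and r without the same brains was 0.632. The brains share litters and genotype, and these values shift with both. The permutations took no account of either, so their p-values may be too small. With the mean of each genotype taken away, r was 0.524 for Kcne2 and 0.253 for Kcnj13, and with the mean of each litter taken away it was 0.744 and 0.820. Within the 7 WT brains r was 0.511 for Kcne2 and 0.752 for Kcnj13, and within the 7 Capn15 KO brains 0.531 and -0.147. The relation of Kcnj13 was not seen within Capn15 KO, but 7 brains are too few to exclude it.

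The start regions of both genes are shown because Kcne2 and Kcnj13 had the smallest p for genotype among the members. The sequences are those of RefSeq on GRCm38.p6, from 250 bases before to 50 after the annotated start, 5′ to 3′ on the strand of the gene. Kcnj13 lies on the minus strand (chr1:87394680-87394979) and Kcne2 on the plus strand (chr16:92292139-92292438), where the upstream one of 2 annotated starts was taken. Capitals mark TATAAA, the TATA box motif, which on either strand occurs in 13.6% of 32851 promoters of this length. It was found once for Kcnj13, with its first base at -29 from the start, and not for Kcne2. TAATCC, the core bound by Otx proteins, occurs in 7.06% of promoters and in neither window.
Kcnj13: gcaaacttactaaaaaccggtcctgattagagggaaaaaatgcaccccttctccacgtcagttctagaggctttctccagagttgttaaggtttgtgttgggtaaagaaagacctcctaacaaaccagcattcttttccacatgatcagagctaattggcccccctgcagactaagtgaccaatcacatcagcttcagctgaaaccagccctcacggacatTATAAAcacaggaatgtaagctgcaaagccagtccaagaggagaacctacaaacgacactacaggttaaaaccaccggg
Kcne2: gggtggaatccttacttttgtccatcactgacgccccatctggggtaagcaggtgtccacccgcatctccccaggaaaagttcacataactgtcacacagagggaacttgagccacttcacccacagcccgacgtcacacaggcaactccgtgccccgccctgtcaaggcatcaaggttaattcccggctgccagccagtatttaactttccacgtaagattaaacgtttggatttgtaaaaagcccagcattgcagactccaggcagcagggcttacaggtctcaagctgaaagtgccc

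The other 3 members with an unadjusted p under 0.05 were low or hardly differed. Kcng4, a Kv2 modifier, was between 0.624 and 0.961 CPM in WT and between 0.322 and 0.916 CPM in Capn15 KO, and at a mean of 34.1 counts a library its log2 fold change of -0.36 (SE 0.160, FDR 0.956 by edgeR's quasi-likelihood test) rested on few reads. Kcnk5, a pH-sensitive K2P channel, was between 1.24 and 1.80 CPM in WT, with a median of 1.60, and between 1.52 and 2.29 CPM in Capn15 KO, with a median of 1.86. Its log2 fold change was 0.26 (SE 0.118, FDR 0.959), it was higher in 5 of 7 pairs, and the groups overlapped. Kcnh2 was between 26.6 and 33.1 CPM in WT and between 26.2 and 33.0 CPM in Capn15 KO, nearly the same range, with a log2 fold change of -0.09 (SE 0.0360, FDR 0.933), or -0.07 (SE 0.0383) without litter F, where its unadjusted p was 0.107 by edgeR's quasi-likelihood test. An exact permutation test without litter and sex gave p = 0.479 for Kcnh2, 0.0402 for Kcnk5 and 0.270 for Kcng4.

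The next genes in order of p were Kcnj9 (log2 fold change of Capn15 KO against WT -0.08, SE 0.0399), Kcnma1 (0.09, SE 0.0446), Kcnj16 (-0.14, SE 0.0731), Kcnq3 (0.09, SE 0.0483) and Kcnd3 (0.06, SE 0.0330), each with an unadjusted p above 0.05. Without the library labelled WT 7 the estimates were smaller for Kcnma1 (0.05), Kcnq3 (0.04) and Kcnd3 (0.03). Kcnd2, the member with the highest level per kilobase, differed between genotypes by less than its spread. It was at 193 ± 12.7 CPM in WT and 190 ± 9.27 CPM in Capn15 KO (SD, n = 7), with a log2 fold change of -0.03 (SE 0.0271). For the axonal genes, the estimates were 0.02 for both Kcna1 (SE 0.0518) and Kcna2 (SE 0.0434), 0.06 for Kcnc1 (SE 0.0405) and 0.05 for Kcnab3 (SE 0.0831). Over members with at least 1 CPM the median SE of the log2 fold change was 0.0482. A difference of that size could not be called. Even Kcne2, at -0.36 (SE 0.0774), had an FDR of 0.278 by edgeR's quasi-likelihood test.

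By role, of 12 inward rectifiers, 7 estimates were lower and 5 higher, with 1 (Kcnj13) at an unadjusted p under 0.05. Of 13 auxiliary subunits, 5 were lower and 8 higher, with 1 (Kcne2) under 0.05. Of the 10 K2P genes 1 was under 0.05 (Kcnk5), of the 10 Kv2 modifiers 1 (Kcng4) and of the 8 eag, erg and elk genes 1 (Kcnh2). The Kv1, Kv4, calcium-activated and sodium-activated genes had 0 members under it. The summed levels per kilobase differed between genotypes by less than their SD, with Kv1 at 43.8 ± 2.99 in WT and 43.4 ± 3.23 in Capn15 KO, inward rectifiers at 39.4 ± 4.86 and 38.6 ± 4.91, and K2P channels at 45.0 ± 4.30 and 45.0 ± 3.44 CPM per kilobase (SD, n = 7).

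**Figure D3:**
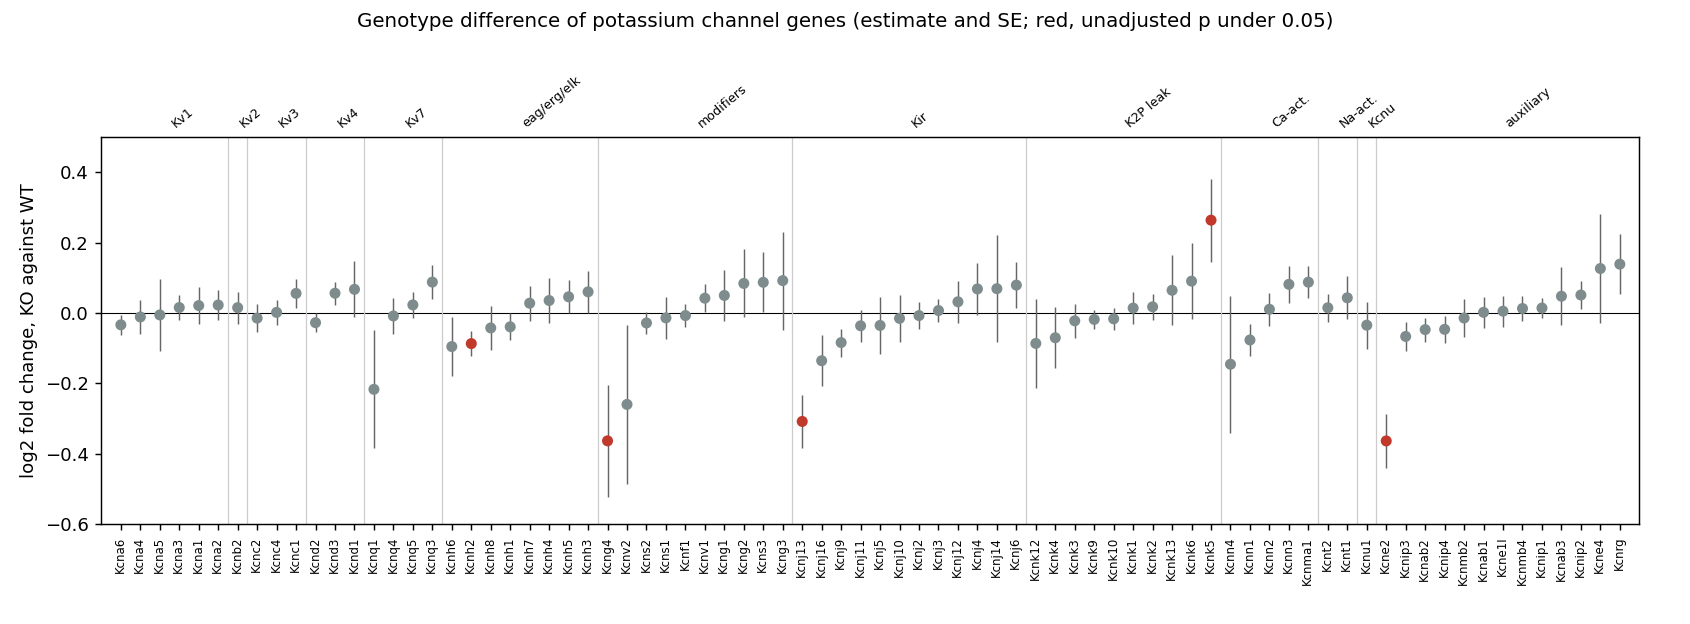
Log2 fold change of 78 of the 81 potassium channel genes, Capn15 KO against WT, by role and ordered by estimate within the role. Points are estimates of edgeR's quasi-likelihood fit over 14 brains and bars their SE; the 5 red points have an unadjusted p under 0.05, and Kcne2, Kcnj13 and Kcng4 are the lowest of these.

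Genes whose products work with potassium channels were listed apart from the family. Of 36 such partners, among them channel-clustering proteins, calmodulins, HCN channels and chloride transporters, 33 were measured and 0 differed at an FDR under 0.05. At an unadjusted p under 0.05, Ank2 and Ank3, which encode ankyrins that hold channels at the axon, were higher in Capn15 KO by edgeR's quasi-likelihood test. In the paper's edgeR analysis, genes of the hindbrain and spinal list used here, such as Hoxb3, were lower at an FDR under 0.05. In the fit used here, marker lists of other cells gave 0 genes at an FDR under 0.05. At an unadjusted p under 0.05 there were 6 higher of 10 forebrain neuron markers, 2 lower (Nefl and Nefm) of 8 general neuron markers, 1 lower (Hoxb3) of 12 hindbrain and spinal markers, 2 higher (C1qb and Trem2) of 8 microglia markers, 1 lower (Gja1) of 10 astrocyte and radial glia markers, 1 higher (Cldn5) of 9 vascular markers, 1 higher (Myh8) of 5 muscle markers and 0 of 8 oligodendrocyte lineage markers.

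Between the sexes, 0 of the 81 members differed at an FDR under 0.05 in the same fit, beside 12 of all genes (0.0669%). At an unadjusted p under 0.05 there were 8 members (9.88%), beside 5.04% of all genes, or 4.86% of those with at least 1 CPM. Of the 8, 4 were higher in males, beside 2.63% of all genes, and 4 were lower, beside 2.41%. DESeq2 put 5 members under an unadjusted p of 0.05, a count given without the share over all genes. Kcnh2 was between 26.2 and 33.1 CPM in the 6 females, with a median of 32.3, and between 26.6 and 32.5 CPM in the 8 males, with a median of 29.1. Its log2 difference of male against female was -0.14 (SE 0.0389, FDR 0.726 by edgeR's quasi-likelihood test), and the ranges of the sexes were nearly the same. Kcnma1 was between 111 and 146 CPM in females, with a median of 123, and between 118 and 157 CPM in males, with a median of 135 (log2 difference 0.13, SE 0.0482, FDR 0.927). Kcnj2, the classical inward rectifier, had medians of 20.1 and 20.7 CPM (log2 difference 0.11, SE 0.0414, FDR 0.927). In the fit, which takes out litter and genotype, the other 5 were Kcng4, Kcnj11 and Kcnn1, lower in males, and Kcnj6 and Kcnq5, higher in males. The mean level of Kcnn1 went the other way, at 22.8 CPM in females and 23.1 CPM in males, beside a fitted log2 difference of male against female of -0.12 (SE 0.0484). Kcnj11 and Kcnj6 were named after their values had been seen. Of the 12 hindbrain and spinal markers 8 were lower in males at an unadjusted p under 0.05, with a median log2 difference of -0.37, and their summed level was between 52.9 and 62.2 CPM in females and between 38.1 and 63.2 CPM in males. The part of the brain region in these differences was not tested.

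Many more potassium channel genes differed in level between litters than between genotypes or sexes. In the same fit 42 of the 81 members (51.9%) differed between the 6 litters at an FDR under 0.05, beside 29.6% of all 17927 genes and 34% of those with at least 1 CPM. At an unadjusted p under 0.05 there were 53 members (65.4%), beside 41% of all genes. Litter B stood at the low end for most of them. Of the 42 members, 38 (90.5%) had their lowest mean in litter B and 3 (7.14%) their highest there. Over all genes called between litters the split was nearly even, with 49.7% lowest and 40.7% highest in litter B. In 28 of the 42 (66.7%) the 4 brains of litter B lay below each of the other 10, beside 29.4% of all genes called. Without litter F, 40 members differed at an FDR under 0.05. Without litter B, 3 members differed at an FDR under 0.05, beside 1.09% of all genes. That fit held only the other 10 brains, so the lower count cannot be told apart from a loss of power.

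The 10 members with the smallest litter p were Kcnn1, Kcnj9, Kcnv1, Kcnq5, Kcnf1, Kcnt2, Kcnj3, Kcnip2, Kcnab1 and Kcnh3. In each of them the 4 brains of litter B were below the other 10. Kcnn1 was between 14.3 and 16.9 CPM in litter B and between 21.5 and 29.8 CPM elsewhere (FDR 1.29e-05 by edgeR's quasi-likelihood test). Kcnj9 was between 10.2 and 10.97 CPM in litter B and between 13.4 and 18.8 CPM elsewhere, and Kcnj3, its partner in the G protein-gated channel, between 37.98 and 42.97 CPM and between 47.7 and 61.1 CPM. Kcnv1, a modifier of Kv2, was between 23.8 and 26.3 CPM in litter B and between 34.8 and 43.2 CPM elsewhere. For Kcnb2, which encodes a Kv2 channel, the litters overlapped, with 46.4 to 53.2 CPM in litter B and 48.2 to 58.0 CPM elsewhere, and its litter FDR was 0.383.

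The other modifier, Kcnf1, was between 31.3 and 34.2 CPM in litter B and between 39.8 and 49.0 CPM elsewhere. Kcnq5 was between 37.2 and 44.7 CPM in litter B and between 49.5 and 65.5 CPM elsewhere. Kcnh3, an elk channel of the forebrain, had a mean of 13.3 ± 1.42 CPM in litter B (SD, n = 4) and 22.8 ± 3.13 CPM elsewhere (SD, n = 10), a ratio of 1.72. Kcnip2 was at 27.4 ± 1.33 and 39.5 ± 3.50 CPM, Kcnab1 at 21.7 ± 1.51 and 31.2 ± 4.15 CPM, and Kcnt2 at 15.6 ± 0.599 and 22.4 ± 2.21 CPM. Means of these 10 genes were highest in litter A or F. Counted in 9 of the 13 roles, the litter FDR was under 0.05 in 8 of 12 inward rectifiers, 6 of 10 Kv2 modifiers, 6 of 10 K2P genes, 5 of 8 eag, erg and elk genes, 5 of 13 auxiliary subunits, 3 of 6 Kv1 genes, 2 of 5 calcium-activated channels, 1 of 3 Kv4 genes and 1 of 2 sodium-activated channels.

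**Figure D4:**
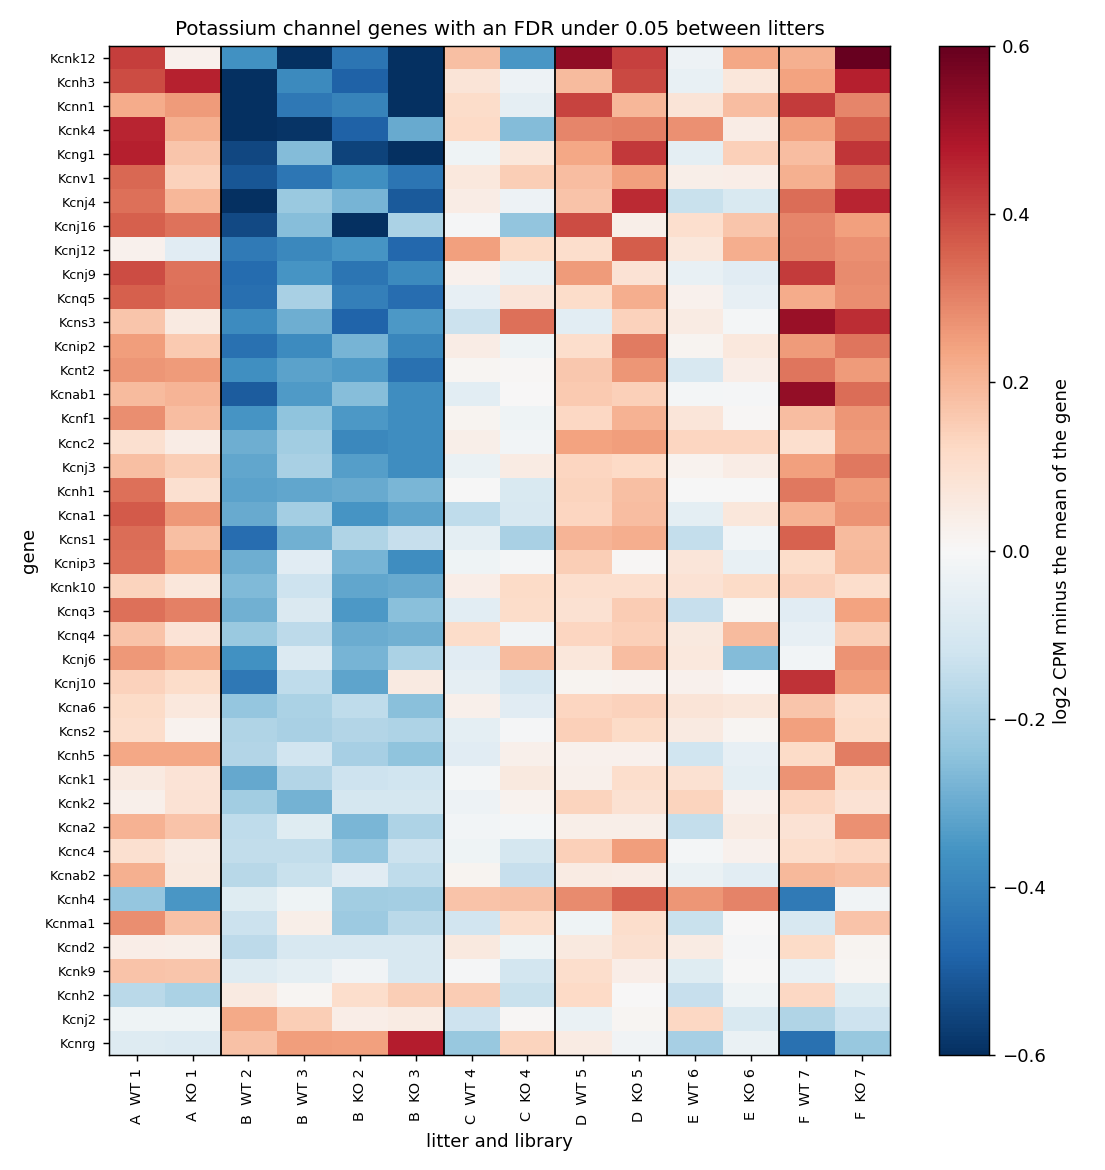
Log2 CPM of the 42 members with a litter FDR under 0.05, minus the mean of the gene, in 14 brains ordered by litter (A to F); blue is below and red above the mean, and values past the ends of the colour bar take its end colours. Litter B has the lowest mean in 38 of the 42 rows, mostly blue across its 4 columns, and the 3 members highest in litter B are Kcnh2, Kcnj2 and Kcnrg.

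Members at the other end varied little from brain to brain. The coefficient of variation over the 14 brains was 2.99% for the KChIP gene Kcnip1, 3.801% for Kcnmb4, the neuronal beta subunit of BK channels, and 4.46% for Kcna3, beside medians of 12.3% over the 77 members and 8.04% over all genes with at least 1 CPM. It was 29.4% for Kcnk12 and 25.97% for Kcnh3. Kcnip1, Kcnmb4, Kcnk9, Kcnk12, Kcnrg, Kcnj14, Kcnn4 and Kcnv2 were named after their values had been seen.

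Markers of other cells moved with litter as well. The summed astrocyte and radial glia markers were between 1890 and 2123 CPM in litter B and between 2238 and 2668 CPM elsewhere, and the oligodendrocyte lineage markers between 343 and 383 CPM and between 399.8 and 589 CPM. The partners of potassium channels were also lower in litter B in every brain, and 20 of the 33 had a litter FDR under 0.05. Hindbrain and spinal markers were between 57.3 and 63.2 CPM in litter B and between 38.1 and 57.4 CPM elsewhere, and forebrain neuron markers between 563 and 613 CPM and between 477 and 600 CPM. General neuron markers overlapped, with 6741 to 6977 CPM in litter B and 6919 to 7381 CPM elsewhere. The part of cell makeup and brain region in the litter differences was not tested.

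The inward rectifiers of glia rose and fell with the glial markers across the brains. Only Kcnj10 and Kcnj16 were set against these markers, so the values below do not single them out among the members. The Kv beta gene Kcnab1 was also lowest in WT 2 (19.8 CPM) and highest in WT 7 (40.3 CPM), as the marker sum was. Kcnj10, which clears potassium into astrocytes, was between 9.03 and 16.4 CPM in WT and between 9.76 and 14.5 CPM in Capn15 KO, and over the 14 brains its log2 CPM and the log2 of the summed astrocyte and radial glia markers had a Pearson r of 0.885 (permutation p = 5e-05, adjusted 0.000200) and a Spearman rho of 0.820 (permutation p = 0.000580, adjusted 0.00116). Without the brains WT 2 and WT 7, the farthest from the median marker sum, r was 0.759. Kcnj16, which joins Kcnj10 in a shared channel, had an r of 0.844 (permutation p = 0.000110, adjusted 0.000220) and a rho of 0.859 (permutation p = 0.000140, adjusted 0.000560), and r without the same brains was 0.808. The permutations shuffled all 14 brains without regard to litter, though the genes and the markers differed by litter, so these p-values may be too small. With the mean of each litter taken away r was 0.226 for Kcnj16 and 0.591 for Kcnj10. Within litters the relation of Kcnj16 was weaker, but so few brains a litter cannot exclude it. With the mean of each genotype taken away r was 0.851 and 0.885.

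**Figure D5:**
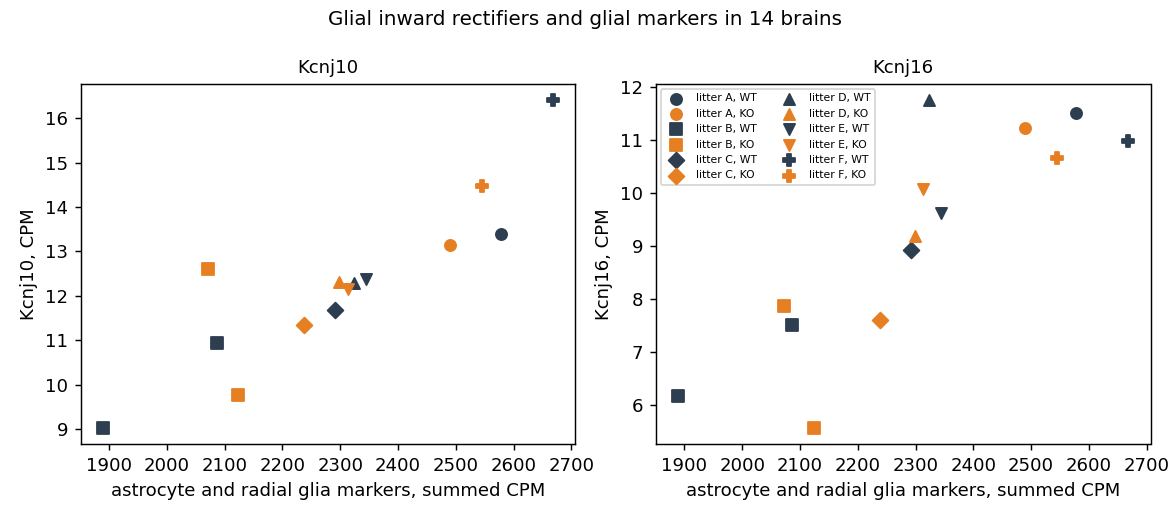
CPM of Kcnj10 (left) and Kcnj16 (right) against the summed CPM of 10 astrocyte and radial glia markers in 14 brains; dark points are WT, orange points Capn15 KO, and the symbol gives the litter. Both genes are higher where the marker sum is higher, from the squares of litter B at the lower left to litters A and F at the upper right.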

How the data were processed

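RNA-SEQ was performed on 14 mouse brains, 7 WT and 7 Capn15 KO. The authors trimmed reads to a phred score of at least 30 and aligned them to GRCm38 with STAR, and they deposited counts per gene, not normalized, with 1 column per brain, for 17927 genes. The paper's methods name HTSeq-count, the ScriptSeq kit and a HiSeq instrument. The labels name a stranded TruSeq kit, and the submitters' processing notes featureCounts. The strand setting, the annotation release and the filter on genes were not given in the sources used here. Of the 81 members 19 overlap another counted gene, 7 of them on the same strand, and reads of such genes could be shared: Kcnj13 overlaps Gigyf2 and Kcnq1 overlaps Kcnq1ot1, both on the other strand. Symbols and biotypes came from a second deposited table. Positions and exon lengths came from GENCODE M21, in which 17915 identifiers were found. Of its 94 protein-coding genes of the family 12 had no row among the counted genes. Another 3 rows of the family were long noncoding RNAs and were left out.

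The labels gave the groups, and the column names of the counts the sex of each brain. The letter from A to F in the column names was read as the litter, a word that they do not use. Genotype, sex and litter were tested in 1 model with edgeR's quasi-likelihood test (edgeR 4.0.16, limma 3.58.1, R 4.3.3, TMM factors, no filter on low counts) over all 17927 genes, with Benjamini-Hochberg adjustment over all of them (FDR). Log2 CPM values used a prior count of 2. Alternatives were DESeq2 1.42.0, limma-voom, other normalizations, filters and covariates, and each library left out. Exact two-sided permutation tests used all regroupings of 7 against 7 brains, the smallest possible p being 0.000583. Correlations used 100000 permutations of all brains, without regard to litter or genotype. The fits were tested on simulated data. Values were summarised with Python 3.11.15, numpy 2.4.6, scipy 1.17.1 and pandas 2.3.3, and drawn with matplotlib 3.10.9.

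The members, the marker lists and the rules were chosen with earlier results of these data known. Named genes were Capn15, the 10 members with the smallest p for genotype and for litter, the 3 for sex, the 3 with the highest level in each role, and members known from glia, choroid plexus, axons or the M current. Some genes of the family and of the lists, which stay in the fits, are not reported here by name and are left out of the figures. Same-numbered WT and Capn15 KO brains share a letter in their column names, read here as the litter. Their deviations from the group means correlated at a mean r of 0.123, from -0.467 in replicate 4 to 0.443 in replicate 7.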

Additional observations from a re-analysis of the deposited data

Results flagged for a closer look

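In groups of 7 brains, 4 of 118 sets of values tested (named members, summed lists and Capn15, with WT and Capn15 KO apart) had a brain standing away from the rest past Dixon's 95% critical value, which sets the gap to the nearest brain against the whole range. Chance alone gives about 1 in 20, or 5.9 here. For Kcnab3 the lowest WT brain was WT 3, at a log2 CPM of 2.30 beside 2.51 in the next, a gap of 0.5892 of the range. For Kcnma1 the highest WT brain was WT 1, at 7.29 beside 7.05, a gap of 0.5949 of the range. For Capn15 itself the library labelled WT 7 was lowest in WT, at 4.23 beside 4.64, a gap of 0.7612 of the range, and the library labelled Capn15 KO 7 was highest in Capn15 KO, at 4.34 beside 3.87, a gap of 0.6474 of the range. These last values are those of litter F.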

How the results depend on the processing

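The counts were recomputed under 26 other settings. The fold changes of the 13 named comparisons kept their direction in all 332 recomputed values, and 1, Kcne2 under the likelihood ratio test, crossed to an FDR of 0.00851. Under that test 1 member passed an FDR of 0.05 for genotype. Unless a share is stated, counts of members under other settings, here and above, are given without the share over all genes. That share can change with the setting, and whether the members moved more than all genes was not tested. The count of members at an unadjusted p under 0.05 for genotype was 5 in the reported fit. It was 2 with DESeq2, 3 without litter and sex, 2 with litter alone and 3 with sex alone. Leaving out 1 library at a time gave 3 to 8 such members, with 8 without WT replicate 5 or Capn15 KO replicate 5 (both of litter D) and 3 without WT replicate 6 or Capn15 KO replicate 6 (both of litter E). For sex the count, 8 as reported, was 5 with DESeq2 and 1 without litter, and 4 to 10 with 1 library left out, with 4 without WT replicate 4 or Capn15 KO replicate 4 and 5 without Capn15 KO replicate 1. With 0 in the reported fit, no left-out library brought a member under an FDR of 0.05 for genotype or sex. For litter, the counts without litter B, a setting chosen after seeing the data, were 3 at an FDR under 0.05 and 29 at an unadjusted p under 0.05, beside 42 and 53 as reported. With fewer brains that fit also had less power. A paired fit, in which the replicate block replaced litter, gave 0 members at an FDR under 0.05 for genotype and 5 at an unadjusted p under 0.05, with Kcne2 at -0.36 and Kcnj13 at -0.31 on the log2 scale. The block changed no call at an FDR under 0.05, and at an unadjusted p under 0.05 Kcnk5 left the 5 members and Kcnj16 joined them. Members under 1 CPM, with mean counts of 17.7 (Kcnv2) to 42.8 (Kcnj14) a library, had wide errors, and the floor of 3 counts covers counting error only.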

Other observations

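Members of the same channel complex differed in their litter FDR by edgeR's quasi-likelihood test. Of the KChIP genes, Kcnip2 and Kcnip3 had litter FDRs under 0.05 while Kcnip1 (FDR 0.917) and Kcnip4 (FDR 0.101) did not, and Kcnd2, their partner, was between 172 and 179 CPM in litter B and between 188 and 208 CPM elsewhere. For BK channels, the pore gene Kcnma1 had a litter FDR of 0.0241 and the beta subunit gene Kcnmb4 of 0.622. Whether the patterns of partners differ from each other was not tested.

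Kcnh4, an elk channel gene, was the called member with another order of litters. Its means were 5.56 CPM in litter A, 5.88 in litter F and 6.23 in litter B, and 7.65, 8.48 and 8.26 CPM in litters C, D and E. Kcnrg, which encodes a cytosolic regulator of Kv channels, was between 3.04 and 3.73 CPM in litter B and between 1.97 and 2.96 CPM elsewhere, so that the 4 brains of litter B were above each of the other 10. Kcnh4, Kcnip4 and Kcnrg were named after their values had been seen.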
